A study of Mus musculus with 18 samples.

Results

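The inserts numbered 12501 to 16461 that have no spliced row in the RNA count table form the last stretch of a library of 16461 DNA inserts. Members were chosen by their number, by the absence of a spliced row and by a mean of 20 or more genomic DNA (gDNA) reads over the 9 gDNA libraries. Both read tables therefore entered the choice. Of 3961 inserts in the number range, 981 had a spliced row and 137 of the rest fell under the gDNA minimum, which left 2843 members. They were compared with the 10394 other inserts that met the same 2 conditions on splicing and gDNA, called the other inserts here.

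In INSERT-seq, a pool of sequences is placed at one locus, so that differences in RNA between inserts come from the inserted sequence and not from the place in the genome. Here the locus was the upstream antisense RNA of Oct4, a pluripotency gene, in female mouse ES cells, a CAST/129 hybrid. All cells carried, on the 129 allele, Oct4C::TagBFP2, the insert library as Oct4ua157 and an mKate2 reporter as Oct4ua172. The siRNAs compared were a non-targeting one (siNT), siWDR82 and siZC3H4, in 3 biological replicates, and each culture gave one library of RNA and one of gDNA. All doses were 30 nM by the protocol, but siWDR82 replicates 2 and 3 are labelled 31 and 32 nM. No culture without siRNA was among the samples.

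WDR82 and ZC3H4 form the core of Restrictor, which stops RNA polymerase II soon after it has started, mostly on noncoding transcription units. Upstream antisense RNA is a typical target, since it is transcribed away from a gene's promoter and is normally short and unstable. Some sequences placed in such a transcript let it escape this early stop, so that more RNA is made.

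The tables identify inserts by number only. Their sequences, their source genes or regions and the principle that ordered the numbers are not given in the sources used here, so no sequence is printed and the numbers are used as labels.

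RNA libraries held 32173068 to 52840375 insert reads and gDNA libraries 4584881 to 11510602. The median member had 232 to 606 gDNA reads per culture, and the 3 shallowest gDNA libraries were those of siWDR82 replicates 2 and 3 and siZC3H4 replicate 3. Depletion of the 2 proteins was not measured by these amplicons. RNA over gDNA cannot tell a lower amount of RNA per cell from RNA made in fewer of the cells that carry an insert.

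The level of an insert in a culture is given here as log2 of its RNA CPM over its gDNA CPM, reads scaled to an equal total in every library, with 0.5 CPM added to both. A level of 0 means equal shares of the RNA and the gDNA reads. In siNT cells the members as a whole lay below that. The median member level was -1.54, -1.32 and -1.30 in the 3 cultures (mean -1.39 ± 0.13, SD, n = 3), against -0.88, -0.82 and -0.85 for the other inserts (-0.85 ± 0.03). The cultures of one set did not overlap with those of the other set. Members were lower by 0.54 ± 0.11 (n = 3). In reads, members took 18.9% ± 0.65 of the siNT gDNA libraries but 10.9% ± 0.41 of the siNT RNA libraries.

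Members and the other inserts differed at the upper end of the level and overlapped at the lower end. The fifth percentile of the level was -5.14 ± 0.46 in members and -4.93 ± 0.34 in the other inserts, and the cultures overlapped. In a siNT culture 8.04% ± 0.92 of members and 7.49% ± 1.07 of the other inserts had 0 RNA reads. The fifth percentile therefore depends on the added 0.5 CPM. The 95th percentile was 0.80 ± 0.02 in members and 1.71 ± 0.08 in the other inserts. When all inserts without a spliced row were ranked into 5 equal groups by siNT level, the top group held 8.88% of members and 23.0% of the other inserts, while the lowest group held 23.8% and 19.0%.

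The other inserts are themselves not uniform, and members lie between their ranges. Inserts numbered 1 to 4000 had a median siNT level of 0.22 ± 0.14, those from 4001 to 5500 of -0.25 ± 0.15, those from 5501 to 9000 of -1.47 ± 0.13, and those from 9001 to 12000 of -1.98 ± 0.27. The members' -1.39 overlapped with the third of these ranges and with none of the other three.

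Single inserts were tested for RNA against gDNA within siNT. With edgeR's quasi-likelihood test and a Benjamini-Hochberg adjusted p under 0.05, 1057 members (37.2%) were lower in RNA than in gDNA, against 26.9% of all 15484 inserts tested. In the other direction, 67 members (2.36%) were higher, against 12.3% of all inserts tested. With RNA and gDNA of a culture tied as a block, 1310 members were lower and 118 higher, against 33.2% and 15.7% of all inserts tested.

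Levels differed more between stretches of numbers than between members and the rest. In steps of 500 numbers, the lowest step was 15001 to 15500, with median siNT levels of -2.58, -2.18 and -2.07 over its 404 members. The highest was the last step, 16001 to 16461, with -0.45, -0.60 and -0.75 over 436 members. These 2 steps are 1.68 apart in their means, which is larger than the spread between cultures in either step (SD 0.27 and 0.15).

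The first 3 steps resembled each other. The mean was -2.11 ± 0.30 for 12501 to 13000 and -1.91 ± 0.54 for 13501 to 14000, the 3 cultures lay between -2.21 and -1.85 for 13001 to 13500, and their cultures overlapped with one another and with those of 15001 to 15500. The level then stood at -0.82 ± 0.17 in 14001 to 14500 and -1.24 ± 0.08 in 14501 to 15000, with no overlap between these steps and the one before. After the drop at 15001, the step 15501 to 16000 had -1.55 ± 0.09, and its cultures all lay above those of 15001 to 15500 and below those of 14501 to 15000. The last step and 14001 to 14500 overlapped with each other. In steps of 100 numbers that hold 20 or more members, the mean ranged from -2.86 ± 1.18 in 13901 to 14000 to -0.29 ± 0.20 in 16301 to 16400.

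The first 3 steps are also where spliced rows are common, so the rule kept few of their inserts. A spliced row was listed for 72.4%, 30.2% and 59.6% of inserts in these steps, against 4.40% to 11.2% in the 5 later ones. They hold 121, 324 and 179 members. A spliced row can be listed only for an insert with RNA reads, so in these steps the members are the inserts left after many transcribed ones were set aside.

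An insert with 0 RNA reads in a culture is called silent in that culture. Of the members, 8.41%, 8.72% and 7.00% were silent in the 3 siNT cultures, against 8.34%, 7.82% and 6.29% of the other inserts. The difference of 0.56 ± 0.44 percentage points had the same sign in 3 of 3 cultures and was about the size of their spread. Over all 3 siNT cultures together, 76 members (2.67%) had no RNA read, against 203 of the other inserts (1.95%).

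Silence was concentrated in some stretches. In the step 13501 to 14000, 25.1%, 26.8% and 22.9% of members were silent, in 15001 to 15500 20.3%, 19.8% and 17.1%, and in 12501 to 13000 18.2%, 19.0% and 11.6%. The share was 0.68% ± 0.23 in 14001 to 14500, 1.89% ± 0.55 in 14501 to 15000 and 1.68% ± 0.35 in the last step. The cultures of the high and the low steps do not overlap.

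The steps with many silent members also had few gDNA reads. The median member had 222 gDNA reads per library in 13501 to 14000 and 324 in 15001 to 15500, against 640 in 14001 to 14500. Among members with a mean of 300 or more gDNA reads, the silent share was 4.17% (the same in each siNT culture) in 13501 to 14000 (72 members), 3.09% ± 1.07 in 12501 to 13000 (54 members) and 2.96% ± 0.97 in 15001 to 15500 (214 members), against 0.18% ± 0.16 in the last step (366 members). The part of low representation in the silent share of each step was not tested.

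At matched gDNA reads, members were silent somewhat more often than the other inserts when gDNA reads were few. Between 20 and 100 gDNA reads, 46.5% ± 2.7 of 249 members and 39.1% ± 2.6 of 1094 other inserts were silent in siNT cultures, with no overlap between the cultures. From 100 to 300 gDNA reads, the shares were 14.1% ± 1.9 and 11.3% ± 2.6, which overlap between cultures. From 300 to 1000 they were 1.17% ± 0.44 and 1.09% ± 0.29, which overlap too.

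Fewer members were silent after either knockdown. The silent share of members, 8.04% ± 0.92 in siNT cells, was 4.21% ± 0.17 after siWDR82 and 4.42% ± 0.48 after siZC3H4 (n = 3 cultures), and every knockdown culture lay below every siNT culture. RNA libraries of the 3 siRNAs overlapped in depth. The other inserts went from 7.49% ± 1.07 to 3.27% ± 0.04 and 3.46% ± 0.47.

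Silence in siNT recurred in part in the same members. Of members silent in one siNT culture, 51.2% ± 4.3 were silent in another siNT culture, 32.3% ± 0.96 in a siWDR82 culture and 34.0% ± 4.5 in a siZC3H4 culture. Counted over 3 cultures, with a limit of 12 reads set after the values were seen, 142 members had 12 or fewer siNT reads, and 74 of these had 100 or more siWDR82 reads. In the opposite direction, 65 members had 12 or fewer siWDR82 reads and 12 of them had 100 or more siNT reads. With siZC3H4 the numbers were 66 of the 142, and 10 of 63.

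Across the whole set, levels were higher with both siRNAs and members differed less from one another. The median member changed by 0.59, 0.59 and 0.68 in the 3 siWDR82 cultures (0.62 ± 0.05) and by 0.47, 0.64 and 0.55 in the 3 siZC3H4 cultures (0.55 ± 0.08), each against the mean of the siNT cultures. The interquartile range of the members' level went from 2.29 ± 0.13 in siNT to 1.58 ± 0.08 and 1.74 ± 0.10. The other inserts narrowed as well, from 2.60 ± 0.26 to 1.84 ± 0.09 and 2.09 ± 0.08. The low end of the members moved most: the fifth percentile went from -5.14 ± 0.46 to -3.61 ± 0.03 and -4.08 ± 0.19. The members' 95th percentile was 0.80 ± 0.06 and 0.85 ± 0.11 and overlapped with siNT. In the other inserts the fifth percentile went from -4.93 ± 0.34 to -3.27 ± 0.12 and -3.54 ± 0.01. With 8.04% ± 0.92 of members at 0 RNA reads in a siNT culture, the size of the low-end shift depends on the added 0.5 CPM.

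The size of this change depends on the scale. CPM sets each library's total equal, and on that scale the median of all inserts tested moved by 0.37 with siWDR82 and 0.36 with siZC3H4. With TMM factors, which align the bulk of inserts, that median moved by 0.11 and 0.11, and the members' by 0.37 and 0.31. Scaled to spike-in reads, it moved by 1.25 and 0.86, and the members' by 1.50 and 1.04. Insert reads per spike-in read were 34.4 ± 7.4 in siNT cells, 68.6 ± 26.4 after siWDR82 and 54.8 ± 27.4 after siZC3H4, so this last scale is imprecise.

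The members' median change exceeded that of the other inserts by 0.21 ± 0.04 with siWDR82 and by 0.16 ± 0.08 with siZC3H4, in 3 of 3 cultures each. At matched siNT level the excess was smaller. For this, inserts were ranked in one siNT culture into 20 equal groups and their change was taken against the other 2 siNT cultures. The members' change then exceeded that of the other inserts by 0.05 ± 0.04 with siWDR82 (0.01 to 0.09) and by 0.03 ± 0.08 with siZC3H4 (-0.06 to 0.09, and -0.02 on average without siNT replicate 1). For a background, each siNT culture was ranked in the same way but set against a single other siNT culture, not the mean of 2. Its values are therefore noisier and not independent of one another. They spread by 0.13 (SD, n = 3), so neither excess stands clear of this difference between siNT cultures.

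The change followed the starting level in members much as in the other inserts. From the lowest to the highest of the 5 groups of siNT level, members changed with siWDR82 by 1.06 ± 0.10, 0.95 ± 0.04, 0.61 ± 0.07, 0.24 ± 0.05 and 0.00 ± 0.10. The other inserts changed by 1.06 ± 0.08, 0.86 ± 0.03, 0.53 ± 0.01, 0.25 ± 0.03 and -0.18 ± 0.04. With siWDR82 the sets were farthest apart in the highest group. With siZC3H4 the values in that group were -0.01 ± 0.12 in members and -0.04 ± 0.05 in the other inserts. Level is not matched within a group, and at the upper end members lay lower (95th percentile 0.80 against 1.71 in siNT). The part of this in the siWDR82 difference was not tested.

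Some stretches changed more or less than other inserts ranked alike in siNT level. Ranking by a single siNT culture matches the level only in part, and the part of the remaining level in these differences was not tested. The largest change was in 15501 to 16000, with 0.92 ± 0.06 for siWDR82 and 0.81 ± 0.05 for siZC3H4. At matched level, taken here and for single last digits with 10 level groups, this step exceeded the other inserts by 0.29 ± 0.02 and 0.27 ± 0.11, against a spread of 0.15 among siNT cultures. The smallest was in 13501 to 14000, with -0.02 ± 0.18 and -0.14 ± 0.31. At matched level its difference from the other inserts was -0.74 ± 0.15 with siWDR82 and -0.79 ± 0.26 with siZC3H4, against a spread of 0.45 among siNT cultures.

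Within 13501 to 14000 the median change was positive in steps of 100 up to 13800 and negative in 13801 to 13900 and 13901 to 14000. The 20 members of 13801 to 13900 changed by -0.25 ± 0.28 with siWDR82 and -0.20 ± 0.68 with siZC3H4. The 54 members of 13901 to 14000 had a median change of -0.97 ± 0.12 with siWDR82 and -1.50 ± 0.66 with siZC3H4. Their siNT medians were -4.10, -2.73 and -1.76, 41.4% ± 4.7 of them were silent in siNT and their median gDNA count was 145. The siNT cultures thus disagree by more than the size of the change.

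Steps of similar siNT level could differ in their change. Steps 12501 to 13000 and 15001 to 15500 overlap in siNT level. Each change was taken against the mean of the siNT cultures, so its SD leaves out their spread. siNT cultures set against each other at matched level spread by 0.39 and 0.27 (SD) in these steps. With siZC3H4 the steps changed by 0.23 ± 0.21 and 0.61 ± 0.09, with no overlap between the siZC3H4 cultures. With siWDR82 the values were 0.60 ± 0.11 and 0.79 ± 0.08, and the ranges of 0.49 to 0.71 and 0.71 to 0.88 meet. The first of these steps had 121 members and fewer gDNA reads (median 235 against 324), and the part of these in the difference was not tested.

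Numbers 14001 to 15000 carried a pattern with a period of 5. Between 2 members of that range whose numbers differ by 5, the siNT level correlated across pairs with r = 0.29 (845 pairs, levels taken from different siNT cultures so that the 2 share no library). At a distance of 10 it was 0.22, at 20 it was 0.21 and at 100 it was 0.14, while at distances of 1 to 4 it was 0.06 to 0.12 and at 6 to 9 between 0.00 and 0.04. For scale, the same insert in 2 siNT cultures gave 0.55. Neighbouring pairs overlap in their members, so these r are a description without a p.

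The members outside that range lacked the period. From 12501 to 14000, r was between -0.07 and 0.06 at distances from 1 to 10. From 15001 to 16461 it was 0.15 to 0.21 at all these distances, and at a distance of 5 it went from 0.18 to 0.00 once each step of 100 numbers was centred on its mean. Centring left 0.25 at a distance of 5 in 14001 to 15000. In the inserts from 1 to 4000, r at a distance of 5 was 0.01.

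Sorted by last digit, the 916 members of 14001 to 15000 fell into an order in siNT cells. This grouping was chosen after the values were seen and is given without a test. Members whose number ends in 0 or 5 had median siNT levels of -0.21, 0.04 and -0.14 (n = 189 members), close to equal shares of RNA and gDNA. Those ending in 4 or 9 had -2.14, -1.97 and -2.01 (180 members), and no culture of one group reached the other.

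The other groups lay between. Numbers ending in 1 or 6 had -0.90 ± 0.19, those in 2 or 7 -0.94 ± 0.20 and those in 3 or 8 -1.32 ± 0.07, where the first 2 overlap. The difference between numbers ending in 0 or 5 and those ending in 4 or 9 was 1.94 ± 0.07 in siNT. In members below 14001 the same difference was -0.05 ± 0.29, in members above 15000 it was 0.05 ± 0.06 and in inserts below 12501 it was 0.08 ± 0.09.

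The order held through most of the range and was not seen in one stretch taken as a whole. In steps of 50 numbers, numbers ending in 0 or 5 had the highest median of the 5 groups in 18 of 20 steps, and those ending in 4 or 9 the lowest in 14. In 14651 to 14850, 4 neighbouring steps whose limits were chosen after the values were seen, the pooled difference was 0.06 ± 0.11. All 5 groups had pooled medians between -1.93 and -1.77. By step the difference was -0.20, 1.15, -0.92 and 0.71, and numbers ending in 0 or 5 were still highest in 14701 to 14750 and 14801 to 14850. Outside that stretch the pooled difference was 2.08 ± 0.11.

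The groups lay closer together after either knockdown. The difference between numbers ending in 0 or 5 and those ending in 4 or 9 went from 1.94 ± 0.07 in siNT to 0.67 ± 0.02 with siWDR82 and 0.84 ± 0.25 with siZC3H4, with no overlap between siNT and either knockdown. Members ending in 4 or 9 had median changes of 1.18 ± 0.10 and 1.10 ± 0.07. Members ending in 0 or 5 changed by 0.01 ± 0.11 and -0.02 ± 0.22 on the CPM scale, which is -0.26 and -0.28 with TMM and 0.94 and 0.51 with spike-in scaling, so the direction of that group depends on the scale. On all 3 scales the median of those ending in 4 or 9 was above 0 and above that of those ending in 0 or 5.

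Ranking by one siNT culture matches the starting level only in part, and these groups were picked by siNT level. At this partial match, members ending in 4 or 9 stood outside the spread of siNT cultures and those ending in 0 or 5 near it. That spread cannot show what is left of the starting level, and the part of the starting level in these differences was not tested. Against the other inserts, the change of members ending in 4 or 9 was higher by 0.41 ± 0.08 with siWDR82 and 0.36 ± 0.07 with siZC3H4, and for members ending in 0 or 5 the difference was -0.26 ± 0.12 and -0.31 ± 0.21. siNT cultures, each set against a single other siNT culture, gave -0.21 to 0.19 for members ending in 4 or 9 and -0.26 to 0.22 for those ending in 0 or 5. Numbers ending in 1 or 6 and in 2 or 7, which overlap in siNT, changed by 0.60 ± 0.02 and 0.29 ± 0.07 with siWDR82, without overlap between the siWDR82 cultures. With siZC3H4 these were 0.56 ± 0.05 and 0.34 ± 0.23, which overlap. The SDs of these changes leave out the spread of siNT cultures, which at matched level was 0.29 and 0.20 (SD) for the 2 groups.

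The representation of the groups differed as well, but not in the order of their levels. From 0 or 5 to 4 or 9, the median gDNA count was 787, 487, 687, 348 and 716. The groups with the highest and the lowest level thus had the most gDNA reads. The silent share was 2.29% ± 1.10 or less in all 5.

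The same groups were counted insert by insert. Of the 180 members ending in 4 or 9, 124 (68.9%) were lower in RNA than in gDNA in siNT at an adjusted p under 0.05 in edgeR's quasi-likelihood test, against 21 of 189 (11.1%) of those ending in 0 or 5 and 26.9% of all inserts tested. These counts restate the siNT levels by which the groups were picked. The levels of all 3 siWDR82 cultures lay above all 3 siNT levels for 53.9% of the first group and 5.29% of the second. Of all inserts tested, not matched for siNT level, 20% did so. These shares too use the siNT levels by which the groups were picked.

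Over all members, 749 (26.3%) had their 3 siWDR82 levels above all 3 siNT levels and 90 (3.17%) had them below, against 20% and 6.87% of all inserts tested. With siZC3H4, 669 (23.5%) lay above and 105 (3.69%) below, against 18.1% and 5.18%. Both comparisons share the siNT cultures and are not matched for siNT level, which was lower in members. Levels are on the CPM scale, where the median of all inserts tested rose by 0.37 with siWDR82 and 0.36 with siZC3H4.

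Few members passed the test one by one. In edgeR's quasi-likelihood test over 15484 inserts, 29 members (1.02%) rose with siWDR82 and 0 fell at an adjusted p under 0.05, against 0.581% and 0.11% of all inserts tested; 356 members had an unadjusted p under 0.05. With DESeq2, 90 rose and 13 fell, against 2.17% and 1.15% of all inserts tested. With siZC3H4, 17 members (0.598%) rose and 0 fell, against 0.323% and 0.0258% of all inserts tested, with 280 at an unadjusted p under 0.05, and with DESeq2 64 rose and 7 fell, against 1.51% and 0.387%.

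With the same block, siWDR82 gave 70 members that rose and 15 that fell, against 1.44% and 1.67% of all inserts tested. For siZC3H4 the block gave 16 and 2, against 0.342% and 0.0904%. The siWDR82 calls depended on single libraries: leaving out any one siWDR82 culture left 6 to 8 calls among members and 13 to 29 among all inserts tested, and leaving out siNT replicate 1 or 3 gave 45 or 61 among members and 214 or 255 among all. For siZC3H4, leaving out one of its own cultures left 4 to 8 calls among members and 11 to 23 among all. Leaving out siNT replicate 1, 2 or 3 gave 49 (8 of them downward), 29 or 50 among members and 249, 125 or 187 among all.

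The calls were of 2 kinds. In 22 of the 29 members that rose with siWDR82, the 3 siNT cultures held 12 or fewer RNA reads together, while the 3 siWDR82 cultures held 220 to 2678. The other 7 had 1178 to 8522 siNT reads and fitted log2 changes of 1.63 to 2.35. Of these 7, the one with the most siNT reads had siNT levels of -2.38, -1.72 and -2.20. Its siWDR82 levels were -0.22, -0.17 and -0.20, and its siZC3H4 levels -0.34, -0.99 and -0.38. It changed by 1.63 ± 0.33 (SE) with siWDR82 (edgeR adjusted p = 0.022, up to 0.12 with one culture left out, 0.057 with limma) and by 1.28 ± 0.33 with siZC3H4 (adjusted p = 0.13), and was chosen after its values were seen.

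The largest fitted rises belong to the first kind. Insert 15518, with 412 gDNA reads on average, had no RNA read in any siNT culture. Its siWDR82 cultures held 438, 85 and 197 reads and its siZC3H4 cultures 389, 43 and 1. With 3 reads over the siNT cultures together assumed in place of none, its siWDR82 level was 209-fold higher. Its siWDR82 change had an edgeR adjusted p of 0.039 (up to 0.17 when one culture is left out, 0.067 with limma). On the same assumption its siZC3H4 level was 140-fold higher (edgeR adjusted p = 0.075). The 3 reads allow for read counting only and leave out the spread between cultures, so these folds are no lower bounds. Its siZC3H4 value rests mainly on one culture.

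Insert 15383 had no siNT reads either, with 243, 192 and 542 reads in the siWDR82 cultures and 132, 308 and 141 in the siZC3H4 cultures. On the assumption used for insert 15518, it was 165-fold higher in siWDR82 cells (edgeR adjusted p = 0.0098, up to 0.078 with one culture left out). In siZC3H4 cells it was 75.5-fold higher (edgeR adjusted p = 0.020, up to 0.15 with one culture left out). The siZC3H4 call was lost with the culture as a block (adjusted p = 0.068) and with limma (0.15), and the siWDR82 call with limma (0.063). All 6 knockdown levels of this insert lay above its 3 siNT levels.

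No member passed the threshold downward in edgeR's test without the block, and the 2 with the lowest p among those with a negative change are given for size. Insert 14335, with 1141 gDNA reads on average, had siNT levels of -1.74, -0.82 and -1.60 and siWDR82 levels of -3.15, -2.40 and -2.60, which do not overlap. Its fitted change was -1.62 ± 0.40 (SE, edgeR adjusted p = 0.070, 0.032 with the culture as a block, 0.0059 with DESeq2) and with siZC3H4 -1.06 ± 0.40 (adjusted p = 0.37). Insert 13957 had 1, 161 and 221 RNA reads in siNT, while its siWDR82 cultures held 0, 1 and 0 (edgeR adjusted p = 0.082, 0.15 with the culture as a block, 0.0028 with DESeq2). Its siNT and siWDR82 levels overlap.

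By step, the 29 siWDR82 calls were spread over all 8, from 0.456% of the 439 members of 14001 to 14500 to 2.48% of the 404 members of 15001 to 15500, against 0.581% of all inserts tested. No call of a difference between siZC3H4 and siWDR82 was made among members with edgeR (0 of 2843, against 0% of all inserts tested), with 45 members at an unadjusted p under 0.05 and 2 calls with DESeq2.

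At the extremes of the siNT level, among members with 100 or more gDNA reads on average, the highest were inserts 16382 and 16434, both in the last step. Insert 16382 had siNT levels of 3.76, 1.43 and 1.45, of which the first stands away from the others, and insert 16434 had 0.92, 2.26 and 2.62. Their siWDR82 levels were 0.99, 1.37 and 0.86, and 1.27, 2.51 and 1.75. Neither changed beyond the threshold (edgeR adjusted p = 0.56 and 0.88).

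The lowest were inserts 15341 and 15344, which are 3 numbers apart. Insert 15341 had 7, 6 and 6 RNA reads in siNT at a mean of 1016 gDNA reads, and levels of -8.03, -7.24 and -7.76. Insert 15344 had 0, 1 and 1 RNA reads at 773 gDNA reads, then 107, 86 and 27 with siWDR82 and 120, 44 and 91 with siZC3H4. It rose by 5.95 ± 0.87 (SE, edgeR adjusted p = 0.0016) and 6.28 ± 0.87 (adjusted p = 0.0016), a fitted value that depends on the few siNT reads, and was called with every culture left out in turn, but not with limma (adjusted p = 0.11 for both). Insert 15341 did not pass (adjusted p = 0.36 with siWDR82).

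The first member by number, 12501, had 23.0 gDNA reads on average and siNT levels of -0.32, 0.46 and 1.31, and the last, 16461, had 1370 gDNA reads and levels of -0.21, -0.16 and -0.79. At the edge of the gDNA minimum, members 12880 and 13397 had means of 20.2 gDNA reads each, and inserts 15704 and 12915, with 19.9 and 19.8, stayed out. In siNT replicates 1 and 3, member 12880 had levels of -2.42 and 1.37 and insert 15704 of -3.40 and -0.24. The 1.37 of member 12880 came from 36 RNA reads and 0 gDNA reads, so the CPM added to both set its size. Both inserts had 0 RNA reads in siNT replicate 1, so their levels there depend on the added CPM too. Both had neither RNA nor gDNA reads in siNT replicate 2, where no level was measured. The siNT levels were -1.15, -2.83 and -0.57 for member 13397 and -1.54, 1.41 and -0.26 for insert 12915.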

How the data were processed

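Amplicon reads of 9 RNA and 9 gDNA libraries were used as the raw counts per insert that the authors deposited. The submitters' processing notes name cutadapt 1.14, Bowtie2 2.3.4.3, STAR and SAMtools. Column headers of the deposited tables start 1 cell early, so each name was read for the cell after it. Spliced and unspliced rows of an insert were summed. The members and lists were chosen with earlier results of these data known.

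Inserts with a mean of 20 or more gDNA reads were tested with edgeR 4.0.16 (quasi-likelihood, 18 libraries, 6 group means, TMM within RNA and within gDNA), with Benjamini-Hochberg adjustment. Named inserts are the 2 largest rises and falls past the threshold with siWDR82 (completed by lowest p), the 2 highest and lowest siNT levels at 100 or more gDNA reads, the 2 on either side of the gDNA minimum, and the first and last member. Alternatives used DESeq2 1.42.0, limma 3.58.1 on log2 ratios, other scalings, filters and blocks, and each culture left out. RNA and gDNA libraries of one culture deviated together (r across inserts 0.29 to 0.47 in 9 of 9), so they pair; replicate numbers across siRNAs did not (r -0.01 to 0.14). Molecular identifiers are not mentioned in the labels, so counting limits cover reads, not molecules. Scripts were tested on simulated data.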

Additional observations from a re-analysis of the deposited data

How the results depend on the processing

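Counts of called members moved with the fit, and the cause was not tested. Calls with siWDR82, 29 as reported above, were 174 with spike-in scaling, 85 with culture as replicate block, 103 with DESeq2, 16 with limma, 10 with only the libraries compared, and 6 to 61 with one culture left out. Calls with siZC3H4, 17 as reported above, were 28 with library totals, 27 with spike-in scaling, 71 with DESeq2, 2 with limma (both downward), 8 with only the libraries compared, and 4 to 50 with one culture left out. Between the siRNAs, DESeq2 made 2 calls and the libraries compared alone made 1. Calls of RNA against gDNA in siNT, 1124 as reported above, were 673 with the siNT libraries alone and 1752 with limma. The replicate number as a block left each of the 4 counts within 1.5 times, as did the RNA minimum of 5, the gDNA minimum of 100 and no filter.

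Against all other inserts, those with a spliced row included, the members' siNT level differed by -0.69 and they were more often silent by 1.33 points. A spliced row needs RNA reads and members have none by rule. Inserts with RNA thus joined the comparison side only, which bears on both differences by construction. Against this wider set the members' change was higher by 0.32 (siWDR82) and 0.24 (siZC3H4), and by 0.10 (siWDR82) at matched level. The silent difference was 1.27 points when up to 3 reads counted as silent. Median changes were 0.52 and 0.46 with 2 CPM added, 1.50 and 1.04 with spike-in scaling and 0.37 and 0.31 with TMM. With one culture left out, the median siWDR82 change was 0.57 to 0.64 and its excess over the other inserts 0.17 to 0.24. That excess was 0.24 with a gDNA minimum of 100. The matched siZC3H4 excess turned to -0.024 without siNT replicate 1 and ranged up to 0.074.

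Alternatives on the numbers were chosen after seeing the data. Over all members, r at a distance of 5 was 0.19, with 0.22 at a gDNA minimum of 100, 0.14 without 14001 to 15000, and 0.18 to 0.22 with a siNT culture left out. These r are not a measure of the period alone. At distances of 1 to 4, r over all members was 0.13 to 0.16. Centring each step of 100 numbers on its mean left 0.068 at a distance of 5. The difference between last digits 0 or 5 and 4 or 9 was 1.80 with 2 CPM added, 2.08 without 14651 to 14850 and 0.063 within it. Depth limits single inserts: the 2 members nearest to the minimum of 20 gDNA reads each had 0 RNA reads in 2 of 3 siNT cultures.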
